A study of Homo sapiens with 14 samples.

Results

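Loss of ARID1A was examined across all genes expressed in NUGC4, a human gastric cancer cell line, by setting a library labelled ARID1A knockout against 4 libraries of the unmodified parental line. Members are the genes that reached at least 5 CPM (counts per 1000000 of the effective library size) in the mean of the wild-type libraries or in the knockout library. Of 59250 gene symbols in the count table, 19124 passed the filter on low counts and 12251 were members. Of these, 10954 reached 5 CPM on both sides, 780 in the wild type alone and 517 in the knockout alone. A member that reached the limit on 1 side alone had to differ, so the counts given here describe the members and carry no test of their number.

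The study profiled messenger RNA captured by its poly(A) tail from NUGC4 cells with altered ARID1A and from HepG2 liver cancer cells with extra CTNNB1. The 4 wild-type libraries (WT replicates 1 to 4) came from parental NUGC4 cells. The 2 libraries labelled ARID1A knockout came from cells transfected with CRISPR-Cas9 constructs against ARID1A, from which clones grown from single cells were isolated, so each can carry what is particular to 1 clone. For comparison, 1 library of NUGC4 with a CRISPRi vector control and 2 with CRISPRi knockdown of ARID1A by sgRNA1 entered the same fit. All of these cells were grown alike in RPMI-1640 medium with fetal bovine serum. The labels do not say that replicates were separate cultures, so p-values measure the spread between these libraries.

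ARID1A is a large DNA-binding subunit of the canonical BAF complex, a remodeller that uses ATP to slide and evict nucleosomes and so keeps enhancers and promoters open. Its gene is inactivated by mutation in a share of gastric cancers. The paralogue ARID1B can take its place in the complex, and Polycomb complexes, which repress genes, act against BAF at many sites.

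ARID1A itself was measured at 124, 128, 113 and 111 CPM in WT replicates 1 to 4, at 35.6 CPM in knockout replicate 1 and, in the library labelled knockout replicate 2, at 144 CPM. The gene lies on chromosome 1 (26696015 to 26782104, GRCh38.p14). It was lower in knockout replicate 1 (log2 fold change -1.74 ± 0.14, SE; adjusted p = 1.3e-08 by edgeR's quasi-likelihood test), with the single value below the whole wild-type range. The library labelled knockout replicate 2 lay above that range and does not bear out its label. It is therefore shown apart throughout, and "the knockout" below means knockout replicate 1, a single library whose spread was taken from the replicated groups. A transcript that is still made from an edited gene is counted here, so the level of RNA does not give the level of protein.

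Total counts ran from 9167761 to 12879594 in the wild type, were 13281199 in the knockout and 16765166 in the library labelled knockout replicate 2. Ribosomal RNA took 8.04 to 11.7% of counts in the wild type, 6.30% in the knockout and 0.161% in the library labelled knockout replicate 2, and mitochondrial genes took 0.985 to 2.50%, 0.832% and 8.23%. The vector and sgRNA1 libraries had the same make-up as the latter. By this make-up knockout replicate 1 and the wild type are called 1 kind of library below, and the other 4 another kind. The labels name no such kinds, and knockout replicate 1 lay below the wild-type range in both shares. Epithelial markers summed to 5160 to 5741 CPM in the wild type and 9884 CPM in the knockout, with 0 of 10 at 0, whereas 7 of 10 fibroblast markers and 6 of 8 endothelial markers were at 0 in the knockout. Fibroblast markers summed to 16.4 to 18.2 CPM in the wild type and 23.7 CPM in the knockout, mostly the collagen COL1A1, which was called higher (17.0 and 23.2 CPM). Endothelial markers summed to 0.301 to 0.979 CPM and 1.88 CPM. Leukocyte markers summed to 1826 to 1973 CPM in the wild type and 1353 CPM in the knockout, nearly all of it LYZ, which gastric epithelium makes, and 6 of 10 were at 0. LYZ was called lower, while the integrin chain ITGAM (7.81 CPM in the mean of the wild type and 20.5 CPM in the knockout) and the lysosomal protein CD68 (32.8 and 58.9 CPM) were called higher. Fewer cells making a transcript and less of it per cell cannot be told apart in these bulk libraries.

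Expression changed broadly. Of the 12251 members, 3203 were higher and 2684 lower in the knockout at an adjusted p under 0.05, and 6364 were not called. Over all 19124 genes tested, 19.2% were called higher and 18.6% lower. The change was at least 2-fold (log2 1) for 1009 higher and 1043 lower members and at least 8-fold (log2 3) for 117 and 54. The median log2 fold change over members was 0.04 and the median absolute log2 fold change was 0.40. Per gene, the median absolute difference from the wild-type mean was 0.384 in log2(CPM + 1), against 0.0881 to 0.156 for each wild-type library set against the mean of the other 3. All 3203 higher members lay above the 4 wild-type libraries and 2683 of the 2684 lower members lay below them. The exception, looked up for that reason, is the ribosomal RNA gene RNR1, at 3612, 114, 3.67 and 8.03 CPM in the wild type and 3.83 CPM in the knockout, where WT replicate 1 stands far above the other 3 (log2 fold change -7.93 ± 3.00; -3.48 without WT replicate 1). Its call was lost by limma-voom, with the wild type and the knockout alone, and without either sgRNA1 library. Near the limit, 227 genes had their higher side between 5 and 5.5 CPM and 256 genes that are not members had it between 4.5 and 5 CPM.

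**Figure D1:**
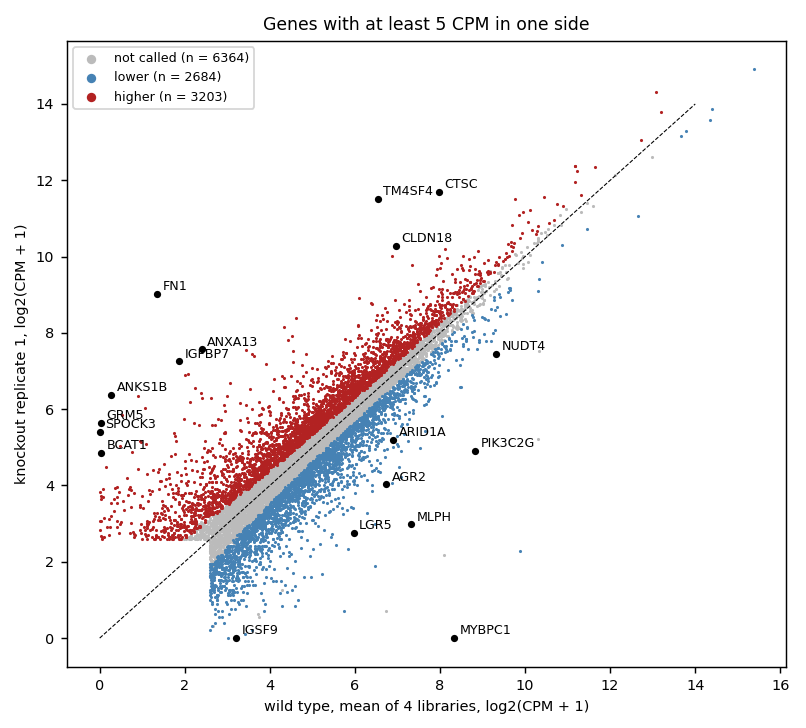
Each point is a member, with the mean of the 4 wild-type libraries on the x axis and knockout replicate 1 on the y axis, both as log2(CPM + 1), coloured by call (3203 higher, 2684 lower, 6364 not called). Points far above the dashed line of equal level include FN1, TM4SF4 and CTSC, and MYBPC1 lies on the floor at 0 in the knockout.

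The library labelled knockout replicate 2 was compared with the same 4 wild-type libraries, so its values share their controls with those of the knockout and are given beside them as a description. Over all genes tested, 24.6% were called higher and 22.2% lower in it, although ARID1A was not lower. Among the 3203 members that rose in the knockout it was called higher for 1694, lower for 243 and neither for 1266. Among the 2684 that fell it was called lower for 1320, higher for 318 and neither for 1046. The vector control, a library of the same kind, lay near it for some genes. MUC13 was at 139 to 163 CPM in the wild type, 327 CPM in the library labelled knockout replicate 2 and 309 CPM with the vector. ITGB8 was at 411 to 482 CPM, 202 CPM and 222 CPM in the same order. These genes are examples chosen after their values were seen. The part that the kind of library has in the differences from the wild type was not tested.

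The largest rises came from genes that the wild type hardly transcribed. In 25 members every wild-type library was under 0.5 CPM and the knockout was at 5 CPM or more, and 21 of these code for protein. In the library labelled knockout replicate 2, none of the 25 reached 5 CPM, and 20 were under 0.5 CPM there.

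SPOCK3, which encodes a secreted proteoglycan of the testican family, was at 0 in all 4 wild-type libraries and at 41.6 CPM in the knockout. Set against a floor of 3 counts over the 4 wild-type libraries, that is at least 622-fold higher. GRM5, a glutamate receptor known from neurons, had a single count in WT replicate 2 (0.0844 CPM), none in the other 3 and 48.9 CPM in the knockout. Its ratio was 2197, with a 95% counting interval from 393 to 86915. BCAT1, the cytosolic aminotransferase of branched-chain amino acids, had the same single count in WT replicate 2 and reached 28.1 CPM (ratio 1260, interval 225 to 49902). In all 3 genes the knockout stood far outside the wild type, and the library labelled knockout replicate 2 was at 0.305, 0 and 0 CPM.

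ANKS1B, a scaffold protein of synapses, was measured at 0.226, 0.169, 0.419 and 0 CPM in the wild type and at 82.2 CPM in the knockout (log2 fold change 8.61 ± 0.29, SE). PHLDB2, which helps anchor microtubules at the cell cortex, went from 0.601, 0.337, 0.419 and 0.392 CPM to 57.0 CPM (6.97 ± 0.24). Fibronectin, FN1, the matrix glycoprotein that integrins bind, had 1.50, 1.60, 1.05 and 2.06 CPM in the wild type and 518 CPM in the knockout (8.37 ± 0.13; adjusted p = 2.6e-18 by edgeR's quasi-likelihood test). The first 2 genes were near the wild-type level in the library labelled knockout replicate 2 (0.366 and 0.794 CPM), and FN1 stood between at 26.1 CPM.

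EVI2A was at 0 in all wild-type libraries and at 13.1 CPM in the knockout, at least 197-fold higher, and EVI2B was at 12.0 CPM against 0.253 CPM in WT replicate 2 and 0 in the others. Both lie inside the gene NF1, on chromosome 17, which rose by less (log2 fold change 0.60 ± 0.11), and whether the counting used strand is not given in the sources used here, so their reads and those of NF1 cannot be told apart with certainty. KCNJ15, an inward-rectifier potassium channel, was at 0 in the wild type and 7.35 CPM in the knockout, at least 110-fold higher. WNT7A, a secreted WNT ligand, was at 0.0752 CPM in WT replicate 1, 0 in the other 3 and 5.39 CPM in the knockout. CLEC4E, a C-type lectin receptor known from myeloid cells, reached 12.2 CPM from at most 0.0844 CPM, and NHS, a regulator of the actin cytoskeleton, reached 21.3 CPM from at most 0.337 CPM. The remaining 2 of the 14 largest protein-coding rises, PPP1R14C and GEM, ended at 7.35 and 5.31 CPM.

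In the other direction, 13 members had at least 5 CPM in the mean of the wild type and under 0.5 CPM in the knockout, 6 of them protein-coding. MYBPC1, which encodes a myosin-binding protein best known from slow skeletal muscle, was measured at 350, 325, 306 and 307 CPM in the wild type and gave no count in the knockout. Against a floor of 3 counts it was at least 1382-fold lower. The library labelled knockout replicate 2 held 280 CPM, so the loss was seen in the knockout library and not there. IGSF9, an adhesion protein of the immunoglobulin superfamily, had 7.29, 9.36, 9.85 and 6.27 CPM in the wild type and none in the knockout, at least 34.8-fold lower. GGT6, of the gamma-glutamyltransferase family, fell from 7.51 to 12.7 CPM across the wild type to 0.0782 CPM, a single count (ratio 121, interval 21.7 to 4805). Both were near the wild type in the library labelled knockout replicate 2 (6.41 and 7.39 CPM).

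MLPH, melanophilin, which links RAB27A-coated organelles to a myosin motor, fell from 154, 161, 167 and 150 CPM to 6.88 CPM (log2 fold change -4.52 ± 0.17). PIK3C2G, a class II phosphoinositide 3-kinase, fell from 515, 460, 392 and 436 CPM to 29.2 CPM (-3.95 ± 0.17). Both groups were clear of each other, and the library labelled knockout replicate 2 was at 113 and 148 CPM, below the wild type but far above the knockout. PIEZO2, a channel opened by mechanical force, fell from 58.6, 56.0, 53.3 and 57.0 CPM to 4.06 CPM (-3.79 ± 0.19).

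FREM2, an extracellular matrix protein of epithelial basement membranes, fell from 27.6, 26.5, 21.2 and 22.2 CPM to 1.02 CPM (-4.58 ± 0.30). The hepatic organic anion transporter SLCO1B1 fell from 12.0 to 16.4 CPM across the wild type to 0.625 CPM. EVA1C fell from 20.5 to 22.9 CPM to 1.41 CPM, and SYBU, which ties vesicle cargo to kinesin, from 26.4 to 32.9 CPM to 2.03 CPM. RTL1, an imprinted gene derived from a retrotransposon, went from 3.54 to 6.31 CPM to 0.156 CPM, but 10.3 CPM was measured in the library labelled knockout replicate 2. The remaining 3 of the 14 largest protein-coding falls were FRMD5 and the RefSeq models LOC124902894 and LOC105374355. LOC124902894 overlaps the SLCO1B cluster.

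**Figure D2:**
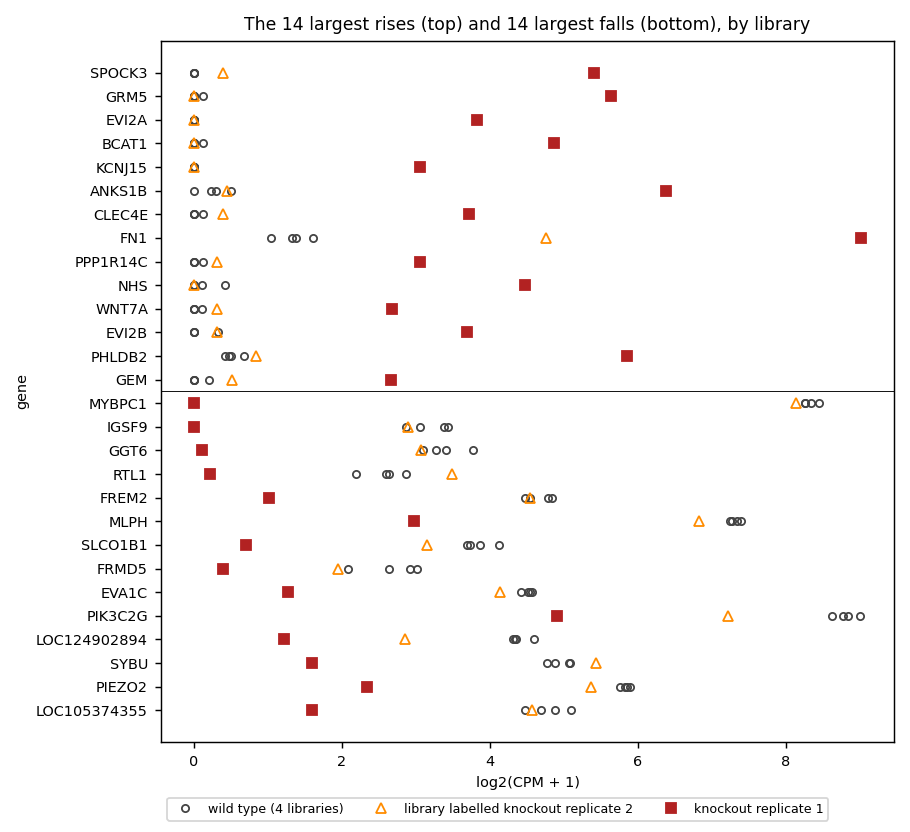
Each row is 1 of the 28 protein-coding genes with the largest log2 fold change, and points give log2(CPM + 1) in the 4 wild-type libraries (circles), knockout replicate 1 (squares) and the library labelled knockout replicate 2 (triangles). In every row the square is outside the circles, while the triangle is mostly near them; FN1, at 26.1 CPM, is between.

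In 12 of the members named by their size the library labelled knockout replicate 2 was within the wild-type range by rule: ANKS1B, BCAT1, EVI2A, GRM5, KCNJ15 and NHS among those that rose, and FREM2, IGSF9, LOC105374355, PEG10, THSD4 and VAMP1 among those that fell. THSD4, a matrix protein with thrombospondin repeats, was measured at 8.34, 7.25, 8.49 and 8.23 CPM in the wild type, 0.703 CPM in the knockout and, in the library labelled knockout replicate 2, 7.51 CPM. PEG10, another imprinted retrotransposon-derived gene, was at 9.55, 9.53, 7.23 and 9.50 CPM, 1.48 CPM and 8.61 CPM in the same order. For both, the knockout alone stood apart.

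By number of transcripts the largest gains among protein-coding genes were of other genes. CTSC, the lysosomal dipeptidyl peptidase cathepsin C, had 253, 243, 254 and 250 CPM in the wild type and 3317 CPM in the knockout (log2 fold change 3.73 ± 0.09; adjusted p = 1.1e-15 by edgeR's quasi-likelihood test). TM4SF4, a membrane protein with 4 transmembrane segments, had 88.6, 95.7, 88.5 and 95.2 CPM and rose to 2935 CPM (5.00 ± 0.09). These 2 genes moved from moderate levels to among the more abundant messenger RNAs of the cell, and in the library labelled knockout replicate 2 they were at 412 and 152 CPM, above the wild type.

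ABHD2, a serine hydrolase of lipids, rose from 847 to 889 CPM across the wild type to 2920 CPM (1.76 ± 0.09), and the hemidesmosome subunit ITGB4 from 2119 to 2534 CPM to 4861 CPM (1.03 ± 0.10). The cytoskeletal genes ACTG1, KRT8 and KRT19 ended at 5178, 3985 and 2321 CPM from wild-type means of 3183, 2314 and 985 CPM. The elongation factor EEF1A1 showed the largest protein-coding gain in CPM, from 9223 to 9650 CPM in the wild type to 14036 CPM (0.58 ± 0.08). In the library labelled knockout replicate 2 ABHD2 was slightly above the wild-type range (951 CPM) and ITGB4 below it (2073 CPM). ACTG1, KRT8, KRT19 and EEF1A1 were well above it there. The vector control was likewise above the wild-type range for KRT8 and KRT19 (4720 and 1856 CPM) and below it for ITGB4 (2054 CPM).

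Among protein-coding genes, the largest losses in CPM included the matrix proteoglycan VCAN, from 3009, 2846, 2613 and 2804 CPM to 1704 CPM (-0.73 ± 0.11). They also included ANPEP, an aminopeptidase of the brush border, from 1111 to 1405 CPM to 678 CPM (-0.92 ± 0.13). The noncoding RNAs NEAT1 and MALAT1, given below, lost more CPM than these. NUDT4, a diphosphoinositol polyphosphate phosphohydrolase, fell from 683, 644, 581 and 645 CPM to 174 CPM (-1.88 ± 0.13) and in the library labelled knockout replicate 2 was at 574 CPM. LYZ, lysozyme, fell from 1786 to 1930 CPM to 1274 CPM, FRMD8 from 701 to 850 CPM to 360 CPM, and the mitochondrial gene ND4 from 530 to 1171 CPM to 465 CPM, a call that was lost by DESeq2. MUC17, a membrane mucin, had 1617, 1480, 1014 and 1255 CPM in the wild type and 924 CPM in the knockout (-0.54 ± 0.17), a call that was lost by DESeq2 and without WT replicate 2.

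Genes of gastric and intestinal epithelium moved both ways. This list and the lists below are read beside the 26.1% of all members that were higher and the 21.9% that were lower. Of 15 members of a list of gastric identity genes, 4 were higher (26.7%) and 6 lower (40%). Their median was -0.19 beside 0.04 over all members. CLDN18, the claudin of gastric tight junctions, rose from 123, 122, 120 and 128 CPM to 1245 CPM (log2 fold change 3.33 ± 0.09). CTSE, a gastric aspartic protease, rose from 258, 272, 259 and 240 CPM to 912 CPM (1.83 ± 0.10). AGR2, a disulfide isomerase needed for mucin folding, fell from 116, 101, 104 and 99.9 CPM to 15.4 CPM (-2.77 ± 0.15). The library labelled knockout replicate 2 was above the wild type for all 3, at 213, 543 and 160 CPM, which for AGR2 is the other direction.

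All 10 members of the intestinal list were called, 3 higher and 7 lower, with a median of -0.65. LGR5, a receptor for R-spondins and a marker of gastric and intestinal stem cells, fell from 65.4, 66.5, 50.3 and 64.4 CPM to 5.78 CPM (-3.41 ± 0.23) and in the library labelled knockout replicate 2 was at 45.1 CPM. MUC13, a membrane mucin, fell from 139 to 163 CPM to 47.8 CPM (-1.63 ± 0.13), with 327 CPM in that library, and VIL1, villin of the microvilli, fell by 0.78 on the log2 scale. The transcription factor HNF4G rose from 45.4 to 59.9 CPM to 132 CPM (1.26 ± 0.13). The retinoic acid receptor gene RARG fell from 32.5, 36.0, 36.6 and 35.5 CPM to 4.53 CPM (-2.95 ± 0.19).

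Cell junction genes were mostly higher. Of 9 claudins, 7 rose and 1 fell (median 0.97). CLDN7 and CLDN4 rose by 1.04 and 0.97 on the log2 scale and CLDN2, a pore-forming claudin, fell by 1.21, from 80.7 to 96.4 CPM to 37.9 CPM. Of 18 genes of adherens junctions and desmosomes, 11 rose and 2 fell (median 0.43). The nectin NECTIN2 rose from 81.2 to 101 CPM to 283 CPM (1.63 ± 0.11), its cytoplasmic partner AFDN from 173 to 207 CPM to 434 CPM (1.18 ± 0.10) and E-cadherin, CDH1, from 239 to 261 CPM to 421 CPM (0.74 ± 0.10). P-cadherin, CDH3, rose from 1.50 to 2.06 CPM to 11.2 CPM. Plakophilin 2, PKP2, fell from 58.8 to 64.7 CPM to 21.2 CPM (-1.55 ± 0.15). AFDN and PKP2 were within the wild-type range in the library labelled knockout replicate 2.

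Single members of calcium-binding and keratin families moved far in opposite directions. The annexin ANXA13 rose from 4.51, 4.56, 3.56 and 4.41 CPM to 190 CPM (5.46 ± 0.13), while ANXA1 fell from 54.1 to 66.0 CPM to 9.77 CPM (-2.61 ± 0.18). S100A4 rose from 15.4 to 16.6 CPM to 110 CPM (2.78 ± 0.11) and S100A14 fell from 55.7, 55.9, 67.2 and 63.3 CPM to 9.69 CPM (-2.64 ± 0.16). The stress keratin KRT16 rose from at most 0.490 CPM to 10.6 CPM and KRT17, encoded nearby, fell from 47.6 to 64.1 CPM to 15.4 CPM. ANXA1 and S100A14 were instead above the wild type in the library labelled knockout replicate 2 (169 and 456 CPM).

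Matrix-degrading enzymes and their inhibitors were higher in 17 and lower in 2 of 24 members (median 0.74). PLAUR, the urokinase receptor, rose from 10.0, 9.79, 10.2 and 9.70 CPM to 67.8 CPM (2.77 ± 0.12) and its ligand PLAU from at most 0.392 CPM to 8.13 CPM (5.27 ± 0.41). TIMP2, a metalloproteinase inhibitor, rose from 142 to 162 CPM to 414 CPM (1.44 ± 0.10), and the membrane protease TMPRSS4 rose by 1.47. The 2 members that fell were TIMP3, from 8.23 to 11.2 CPM to 0.782 CPM, and ADAM28. PLAUR was also above the wild type in the library labelled knockout replicate 2 (43.3 CPM), and TIMP2 was not (141 CPM).

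Of 14 integrin genes, 10 rose and 1 fell (median 0.69). ITGB8, which activates latent TGF-beta, rose from 411 to 482 CPM to 1010 CPM (1.18 ± 0.10), ITGB5 by 1.33 ± 0.11 and the common beta chain ITGB1 by 1.12 ± 0.13. In the library labelled knockout replicate 2 ITGB8 was below the wild type (202 CPM). Collagens split into 6 higher and 3 lower of 11. COL6A1 rose from 90.7 to 108 CPM to 351 CPM (1.84 ± 0.10) and COL4A5, a chain of basement membranes, fell from 23.1 to 27.6 CPM to 4.14 CPM (-2.62 ± 0.25). The matrix protein THBS1 fell by 1.35.

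Semaphorins and plexins, guidance ligands and their receptors, split into 10 higher (50%) and 8 lower (40%) of 20. SEMA3C rose from 9.19 to 10.6 CPM to 53.6 CPM (2.43 ± 0.15), SEMA4B rose by 1.94 and the receptor PLXND1 by 1.89. SEMA6A fell from 394, 351, 339 and 352 CPM to 95.1 CPM (-1.92 ± 0.13).

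The growth factor lists are read beside the 26.1% of all members that were higher and the 21.9% that were lower. In the TGF-beta and BMP list 14 of 35 members rose and 3 fell (median 0.26). The type I activin receptor ACVR1B rose from 87.0, 83.8, 83.9 and 73.9 CPM to 439 CPM (2.42 ± 0.10), the related receptor ACVRL1 from at most 0.601 CPM to 14.2 CPM (5.48 ± 0.39), the ligand BMP2 from 3.67 to 6.37 CPM to 30.4 CPM (2.54 ± 0.22) and the decoy receptor BAMBI from 9.62 to 11.9 CPM to 41.0 CPM (1.98 ± 0.15). These genes were measured in the library labelled knockout replicate 2 at 95.0, 0.244, 4.21 and 14.9 CPM.

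In the WNT list 10 of 34 members rose (29.4%) and 7 fell (20.6%). Of the 10 that rose, 6 reached 5 CPM in the knockout alone. Among the 28 that reached it on both sides, 4 rose (14.3%) and 7 fell (25%). The shares over all members at 5 CPM on both sides were 25.5% and 19.3%. The R-spondin receptor LGR4 fell from 575 to 676 CPM to 269 CPM (-1.23 ± 0.12), alongside LGR5, and the receptor FZD4 rose from 2.73 to 5.82 CPM to 23.8 CPM (2.62 ± 0.26). The target gene AXIN2, at 16.2 to 21.9 CPM in the wild type and 14.4 CPM in the knockout, did not pass the test.

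Of 9 genes in a list of ERBB receptors, ligands and related genes, 3 rose and 5 fell (median -0.61). The receptor ERBB2 fell from 461, 519, 514 and 438 CPM to 226 CPM (-1.10 ± 0.12). LRIG3 and LRIG1 of the same list fell from 75.5 to 90.1 CPM to 13.4 CPM (-2.62 ± 0.17) and from 95.9 to 101 CPM to 36.8 CPM (-1.41 ± 0.13). The ligand TGFA rose from 90.2 to 97.4 CPM to 219 CPM (1.23 ± 0.10), and ERBB3 was not called, at 1238 to 1283 CPM against 1366 CPM.

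In the list of FGF receptors, ligands and feedback genes 10 of 18 rose and 3 fell (median 0.50). FGFR2 rose from 51.7 to 54.3 CPM to 137 CPM (1.37 ± 0.11). The phosphatases DUSP5 and DUSP6, which limit ERK signalling, rose from 3.46 to 6.39 CPM to 47.0 CPM and from 15.1 to 22.1 CPM to 56.4 CPM, and both were also high in the library labelled knockout replicate 2 (37.5 and 102 CPM). Notch genes split into 3 higher (17.6%) and 4 lower (23.5%) of 17, among them the ligand JAG1 (1.66 ± 0.12) and LFNG, which adds sugars to Notch receptors (-1.92 ± 0.18).

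In a list of the IGF2 ligand, IGF-binding proteins and IGF2 mRNA-binding proteins 6 were higher and 1 lower of 9. IGFBP7 rose from 2.86, 2.02, 3.35 and 2.35 CPM to 152 CPM (5.84 ± 0.16) and in the library labelled knockout replicate 2 was at 2.20 CPM, within the wild type. IGFBP6 rose by 2.17 ± 0.12, IGFBP2 fell from 40.4 to 55.6 CPM to 11.8 CPM (-2.02 ± 0.21), and the ligand IGF2 rose by 1.11 ± 0.12.

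Interferon-induced genes rose with few exceptions. Of 47 members 44 were higher and 1, TRIM25, was lower (-0.33 ± 0.11, a call lost in 2 of the alternative fits that kept the libraries labelled knockout apart), with a median log2 fold change of 1.36 beside 0.04 over all members. Of these, 15 reached 5 CPM in the knockout alone, and among the 32 that did so on both sides 29 rose and 1 fell. OAS2, an enzyme that senses double-stranded RNA, rose from 4.51, 5.06, 3.56 and 3.62 CPM to 84.4 CPM (4.31 ± 0.15). IFI6, a mitochondrial and endoplasmic reticulum protein, rose from 8.12, 11.8, 12.0 and 11.9 CPM to 173 CPM (3.99 ± 0.14). ISG20, an RNA exonuclease, rose from 13.7 to 14.7 CPM to 145 CPM (3.37 ± 0.11) and OASL from 0.588 to 1.36 CPM to 33.1 CPM (4.86 ± 0.24). In each of these 4 the knockout was far above the wild type, and the library labelled knockout replicate 2 was also above it, at 11.5, 49.6, 24.4 and 4.70 CPM. In that library 20 of the 47 were higher and 4 lower (median 0.44). The vector control, a library of the same kind, also exceeded the wild type for OAS2, IFI6, ISG20 and OASL (11.2, 57.6, 25.7 and 3.65 CPM). What the kind of library adds to these levels was not tested.

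The promoters of 4 genes of the list are shown because they hold matches to the core of the response element that interferon-activated factors are known to bind, and because the first 3 sit side by side on chromosome 10. Each is the 150 bases before the gene's start on the + strand, from RefSeq (GRCh38.p14): IFIT1 chr10:89392473-89392622, IFIT3 chr10:89327847-89327996, IFIT5 chr10:89414418-89414567 and ISG15 chr1:1013347-1013496. Capitals mark a pair of GAAA parted by any 2 bases, or its reverse complement, a pair of TTTC parted alike, and overlapping matches run together.
IFIT1: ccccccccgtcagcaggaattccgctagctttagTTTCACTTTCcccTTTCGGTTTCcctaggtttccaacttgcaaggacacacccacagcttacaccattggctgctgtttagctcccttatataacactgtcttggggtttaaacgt
IFIT3: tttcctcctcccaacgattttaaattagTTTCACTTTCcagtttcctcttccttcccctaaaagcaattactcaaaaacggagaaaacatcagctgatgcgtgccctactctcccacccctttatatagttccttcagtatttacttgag
IFIT5: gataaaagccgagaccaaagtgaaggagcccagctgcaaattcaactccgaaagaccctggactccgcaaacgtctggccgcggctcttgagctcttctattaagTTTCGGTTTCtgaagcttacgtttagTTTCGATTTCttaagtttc
ISG15: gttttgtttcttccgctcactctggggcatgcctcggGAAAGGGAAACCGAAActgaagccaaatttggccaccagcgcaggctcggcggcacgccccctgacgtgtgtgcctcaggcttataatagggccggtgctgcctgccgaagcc

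Over all 27305 RefSeq promoter windows (250 bases before to 50 after the start) 996, or 3.65%, held such a match. Only 9426 of the 12251 members (76.9%) had a window, so no share is compared between members that rose and fell. IFIT1, with 2 matches, was at 0.301, 0.253, 0.629 and 0.294 CPM in the wild type and 5.71 CPM in the knockout (log2 fold change 3.96 ± 0.45). IFIT3, with 1 match, was at 3.23, 4.72, 3.56 and 4.41 CPM and 10.6 CPM (1.42 ± 0.25). IFIT5, with 2, was at 5.56, 6.58, 4.40 and 3.82 CPM and 19.5 CPM (1.92 ± 0.23), and ISG15, with 2, at 19.4, 22.9, 30.5 and 22.5 CPM and 89.7 CPM (1.92 ± 0.15). All 4 genes were above the wild type in the knockout. IFIT5 and ISG15 were within it in the library labelled knockout replicate 2, at 4.64 and 27.0 CPM.

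Genes that present peptides on MHC class I rose in 20 of 23 members and fell in 0 (median 1.04). HLA-B had 95.3 to 116 CPM in the wild type and 371 CPM in the knockout (1.80 ± 0.11), and the peptide transporter subunit TAP1 34.4 to 47.5 CPM and 139 CPM (1.81 ± 0.13). HLA genes are polymorphic and alike, so reads can be shared between them. The library labelled knockout replicate 2 was above the wild type for HLA-B (185 CPM) and within it for TAP1 (45.0 CPM).

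Genes of protein folding in the endoplasmic reticulum and targets of the factor ATF4 rose in 30 of 36 members and fell in 1 (median 0.85). The chaperone HSPA5 rose from 231, 232, 238 and 265 CPM to 816 CPM (1.76 ± 0.10), DNAJB9 from 13.9 to 20.7 CPM to 76.4 CPM (2.11 ± 0.14) and the cystine transporter SLC7A11 from 231 to 270 CPM to 1042 CPM (2.06 ± 0.10). The transcription factor CEBPB rose from 22.6 to 25.8 CPM to 81.7 CPM (1.73 ± 0.12). HSPA5 and CEBPB were high in the library labelled knockout replicate 2 as well, at 618 and 97.9 CPM.

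In glycolysis and the hypoxia response 17 of 39 members rose and 2 fell (median 0.24). PFKFB2, which makes the activator of phosphofructokinase, rose from 119, 108, 112 and 124 CPM to 1042 CPM (3.17 ± 0.09), the aldolase ALDOC from 17.2 to 19.6 CPM to 116 CPM (2.64 ± 0.12) and the glucose transporter SLC2A1 from 97.4 to 108 CPM to 402 CPM (1.96 ± 0.10). NDRG1, a hypoxia-inducible gene, fell from 134, 141, 146 and 117 CPM to 17.8 CPM (-2.91 ± 0.16). Another hexose transporter, SLC2A6, rose from 16.3, 22.3, 18.5 and 19.3 CPM to 286 CPM (3.91 ± 0.12). Over 201 solute carriers 83 rose and 29 fell (median 0.27).

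Fatty acid and lipid storage genes rose in 18 and fell in 3 of 35 members (median 0.47). The desaturase SCD rose from 957, 956, 872 and 911 CPM to 2180 CPM (1.24 ± 0.10) and ACSL5, which activates fatty acids, from 127 to 139 CPM to 385 CPM (1.55 ± 0.10). The synthase FASN, at 1483 to 1861 CPM in the wild type and 1823 CPM in the knockout, was not called. Cholesterol genes rose in 16 and fell in 4 of 29 members (median 0.44), led by the sterol exporter ABCG1, from 2.95 to 5.03 CPM to 48.8 CPM (3.76 ± 0.19). Phase II enzymes of the UGT and SULT families fell in 8 and rose in 2 of 13 members (median -0.40). The drug exporter ABCB1 rose from 9.33 to 16.2 CPM to 72.2 CPM (2.53 ± 0.17).

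Among genes of the dividing cell more were lower than higher. Of 44 DNA replication genes 3 were higher and 21 lower (median -0.34), and of 47 mitotic genes 1 was higher and 24 lower (median -0.45). ASPM, of the spindle poles, fell from 169, 160, 137 and 186 CPM to 61.5 CPM (-1.41 ± 0.16), CENPF, of the kinetochore, from 100 to 131 CPM to 63.8 CPM (-0.89 ± 0.16) and RFC3, of the clamp loader, from 56.0 to 72.6 CPM to 32.1 CPM (-1.03 ± 0.15). CDKN1A, which encodes the cell cycle inhibitor p21, rose from 115 to 140 CPM to 311 CPM (1.29 ± 0.11). The fall was not seen with sgRNA1 against the vector, where 3 replication genes and 1 mitotic gene were called higher and 0 lower. Over all genes tested 4.54% were called higher and 4.04% lower in that comparison. In the library labelled knockout replicate 2 the medians were positive (0.53 and 0.31), with 30 replication genes and 20 mitotic genes higher and 4 and 1 lower. Ribosomal protein genes rose in 48 of 81 members of the knockout and fell in 0 (median 0.38), and in that library in 70 (median 0.87).

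Most other subunits of the remodeller were not called. Of 25 BAF, PBAF and ncBAF genes 4 were lower and 0 higher (median -0.04). Beside ARID1A these were BRD9, from 49.1 to 55.1 CPM to 32.5 CPM (-0.68 ± 0.13), SMARCA2, one of the paired ATPases, from 67.8 to 76.7 CPM to 54.0 CPM (-0.44 ± 0.13), and BCL11B (-0.41), whose call was lost in 4 of the alternative fits that kept the libraries labelled knockout apart. The paralogue ARID1B was measured at 79.9, 76.6, 70.0 and 76.1 CPM in the wild type and 73.6 CPM in the knockout (log2 fold change -0.04 ± 0.12), and did not pass the test. Polycomb genes split into 5 higher and 4 lower of 33 (median 0.02). The methyltransferase EZH2 fell from 119, 119, 114 and 119 CPM to 52.3 CPM (-1.17 ± 0.12) and CBX6, a reader of its mark, rose from 4.64 to 6.56 CPM to 26.8 CPM (2.33 ± 0.19). Zinc finger genes named ZNF fell in 71 (21.5%) and rose in 28 (8.48%) of 330 members (median -0.12). Over all members 21.9% fell and 26.1% rose, so the share that fell was near that of all members and fewer rose. ZNF117 and ZNF704 fell by 2.31 and 3.10 on the log2 scale.

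Classes of transcript differed. Of 10796 protein-coding members 28.1% were higher and 18.2% lower (median 0.09). Of 811 long noncoding RNAs 8.38% were higher and 57.1% lower (median -0.78). NEAT1, the RNA that builds nuclear paraspeckles, fell from 6737, 6236, 6193 and 6568 CPM to 2158 CPM (-1.58 ± 0.12), and MALAT1, of nuclear speckles, from 21110, 19819, 19472 and 22669 CPM to 12241 CPM (-0.76 ± 0.15). The share of ribosomal RNA in the same libraries was 8.04 to 11.7% in the wild type and 6.30% in the knockout. In the library labelled knockout replicate 2, with 0.161%, 492 long noncoding RNAs were lower and 80 higher (median -1.04), and NEAT1 and MALAT1 were at 537 and 4625 CPM. The part that library make-up has in the fall of noncoding RNAs was not tested.

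Position along the genome was described from RefSeq gene positions (GRCh38.p14). Chromosome 6 had the highest median log2 fold change, 0.31 over 643 members, with 279 higher and 73 lower (43.4% and 11.4%). Its median was 0.09 in the library labelled knockout replicate 2. The medians of the other chromosomes lay between -0.11 for chromosome 16 and 0.14 for chromosome 20. Without the genes of MHC class I presentation, 572 protein-coding members on chromosome 6 still had a median of 0.31, against 0.07 for 10200 protein-coding members elsewhere. Of 16 windows of 10 Mb on the chromosome 15 had a median above 0. On chromosome 15, 70 protein-coding members beyond 80 Mb had a median of 0.55 with 40 higher and 8 lower, against 0.10 for the 259 before it. ISG20, AEN, ABHD2 and SEMA4B lie there and rose by 3.37, 1.56, 1.76 and 1.94, and ANPEP lies there and fell. The last window of that chromosome, beyond 100 Mb, had a median of 0.12 over 12 members. Of 285 windows over the genome 17 had a median of at least 0.3, 8 of them on chromosome 6 or 15, and 18 had one of -0.3 or less. The lowest were -0.58 over 14 members from 60 to 70 Mb on chromosome 9 and -0.51 over 14 members from 80 to 90 Mb on chromosome 7, with -0.58 and -0.39 in the library labelled knockout replicate 2.

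**Figure D3:**
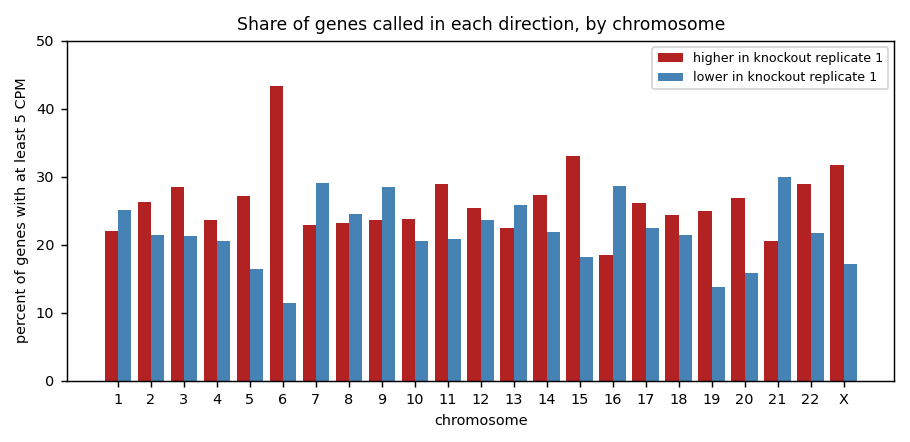
Bars give, for each chromosome, the percent of its members called higher (red) or lower (blue) in knockout replicate 1. Chromosome 6 stands out with 43.4% higher and 11.4% lower.

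Several changed genes were neighbours. CTSC (chromosome 11, 88293592 to 88337736) lies next to GRM5 (88504642 to 89065982) and both rose, while RAB38 and CHORDC1 on either side were not called. TM4SF1 lies beside TM4SF4 and rose by 1.93, from a wild-type mean of 121 CPM. Beside MYBPC1, ARL1 rose by 1.01 and CHPT1 fell by 2.01. Of runs of at least 4 adjacent members that changed 2-fold in 1 direction there were 7. They included IFIT2, IFIT3, IFIT1 and IFIT5 on chromosome 10 (median 1.67), CBX6 with APOBEC3B, APOBEC3C and APOBEC3F on chromosome 22 (1.58), WIPF3, SCRN1, FKBP14 and PLEKHA8 on chromosome 7 (2.29) and RASSF6, CXCL8, CXCL1 and CXCL3 on chromosome 4 (2.15). The 1 run of falls was the SLCO1B cluster on chromosome 12 (median -3.46), whose RefSeq models overlap. In the library labelled knockout replicate 2 the chemokine run had a median of 2.36 while the runs of IFIT2, CBX6, WIPF3 and SLCO1B1 had medians of 0.26, 0.67, 0.20 and -1.20.

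CRISPRi knockdown of ARID1A was set beside the knockout because the 2 comparisons share no library. The vector library had 141 CPM of ARID1A and the sgRNA1 libraries 61.7 and 57.7 CPM (log2 fold change -1.24 ± 0.12). Over all genes tested 4.54% were called higher and 4.04% lower with sgRNA1. Of the 3203 members that rose in the knockout 697 were also higher with sgRNA1 and 25 lower, and of the 2684 that fell 514 were also lower and 16 higher. Those 697 genes are 21.8% of the members that rose and 86.8% of the 803 members called higher with sgRNA1. The 514 are 19.2% of those that fell and 75.9% of the 677 called lower.

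The share called in the same direction was larger among larger changes. Of 1009 members that rose at least 2-fold 442 (43.8%) were called higher with sgRNA1. Of 266 members that rose at least 4-fold (log2 2), 153 (57.5%) were called higher with sgRNA1 and 1 lower, with a median log2 fold change of 1.13 there and 2.78 in the knockout. Of 204 that fell as much, 113 (55.4%) were called lower and 1 higher, with medians of -0.95 and -2.50. SPOCK3 was at 0 with the vector and 38.7 and 30.4 CPM with sgRNA1, near the 41.6 CPM of the knockout. FN1 was at 20.9 CPM and at 1251 and 1213 CPM, higher than in the knockout. MYBPC1 was at 273 CPM and at 89.7 and 94.1 CPM, CLDN18 at 201 CPM and at 1308 and 1293 CPM, and LGR5 at 47.9 CPM and at 14.4 and 19.1 CPM. All 5 genes moved with sgRNA1 in the direction of the knockout and passed the test.

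The difference between the 2 effects was tested in the same fit. It passed for 828 of the members that rose in the knockout and 628 of those that fell. BCAT1 stood at 0.629 CPM with the vector and 0.525 and 0.672 CPM with sgRNA1 (log2 fold change -0.07 ± 0.58), and its effect differed from that in the knockout (adjusted p = 6.0e-06 by edgeR's quasi-likelihood test). On the log2 scale FN1 (difference 2.49), TM4SF4 (1.92) and ANXA13 (4.41) rose more in the knockout, and MLPH (-2.69) and PIK3C2G (-3.14) fell more. FN1 started higher with the vector than in the wild type and, in CPM, ended higher with sgRNA1 than in the knockout. For ARID1A itself (-0.51; adjusted p = 0.093 by edgeR's quasi-likelihood test), ALDOC (0.27) and ITGB4 (0.09) the difference did not pass. S100A14 went the other way, falling in the knockout and rising from 423 CPM to 731 and 769 CPM with sgRNA1. The 2 comparisons also differ in the kind of library and in the amount of ARID1A RNA left, and the part of either was not tested.

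**Figure D4:**
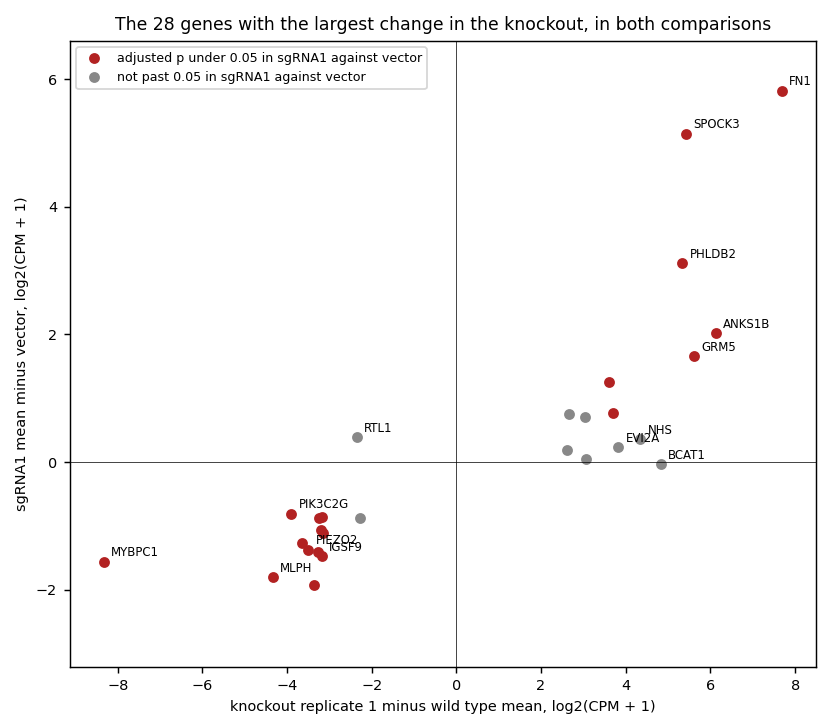
Each point is 1 of the 28 protein-coding genes with the largest change in the knockout. The x axis is the difference in log2(CPM + 1) between knockout replicate 1 and the wild-type mean. The y axis is that between the sgRNA1 mean and the vector library. SPOCK3 and FN1 are high on both axes, BCAT1 is high in the knockout alone, and RTL1 is the 1 gene of the falls above 0 with sgRNA1.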

How the data were processed

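The deposited table holds whole-number read counts per gene symbol, which the authors left unnormalized; STAR 2.7.10a and hg38 are named per the submitters' processing notes. No source used here gives the counting tool, the annotation or whether strand was used. The 9 NUGC4 libraries whose columns match a sample by name entered 1 fit, and 1 column of per-sample values, whose name carries the knockout label but matches no sample, was used in no step. The vector library labelled replicate 2 was not analysed here. Genes were filtered with filterByExpr, scaled by TMM and tested with edgeR 4.0.16 (R 4.3.3) by its quasi-likelihood test, with p-values adjusted by Benjamini-Hochberg over all genes tested and a threshold of 0.05. The fit had 5 means (wild type, each library labelled knockout, vector, sgRNA1), which left 4 residual degrees of freedom; the spread of the lone knockout library was assumed to be that of the replicated groups. CPM values are counts per 1000000 of the TMM-adjusted library size. Ratios against a group at 0 use a floor of 3 counts over the group, and counting intervals (95%, exact) cover counting error only.

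Members and gene lists (66) were chosen with earlier results of these data known, and no list was tested as a set. Genes are named by a rule: ARID1A, the 14 largest protein-coding rises and falls, the 8 largest in CPM, the 6 largest each way for which the library labelled knockout replicate 2 was within the wild-type range, and up to 4 genes of each list by smallest adjusted p. The rankings by size and by CPM took protein-coding genes only. AXIN2, FASN, ARID1B, ERBB3, CDH1, TIMP3, ADAM28, TRIM25, RNR1, COL1A1, CD68, the genes shown with promoters, the noncoding RNAs and the neighbouring genes were chosen after their values were seen. RefSeq positions and promoters (GRCh38.p14) were matched by symbol for 57841 of 59250 symbols. Counts were simulated for this comparison over 17882 genes. Of 100 genes changed by log2 1, 91% were recovered, and of 100 changed by log2 2, 100%, with 7 false calls. The simulated libraries shared 1 mean per gene apart from the changed genes, and a spread set by level alone. They held no kinds of library and no effect of a clone, so the false calls do not measure the error in the real comparison. Alternatives were DESeq2 1.42.0, limma 3.58.1 (voom), DESeq2 size factors, no filter, other limits on level and size, other groupings and leaving out each library.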

Additional observations from a re-analysis of the deposited data

Results flagged for a closer look

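Among the 148 named genes examined, 9 had 1 wild-type library apart from the other 3, by a gap to the nearest library above Dixon's 95% limit for 4 values. Chance sets apart about 1 in 20 such groups. WT replicate 3 was low for ANXA13 (3.56 CPM), EZH2 (114 CPM), LGR5 (50.3 CPM) and PEG10 (7.23 CPM). WT replicate 1 was low for IFI6 (8.12 CPM) and high for RNR1 (3612 CPM), and WT replicate 2 was apart for SCRN1 (4.98 CPM). WT replicate 4 was apart for ISG20 (14.7 CPM) and for the RefSeq model LOC124902894 (23.2 CPM). For the 8 of these genes other than RNR1 knockout replicate 1 lay outside all 4 wild-type libraries, and the call held without each wild-type library in turn.

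S100A14, a calcium-binding protein of epithelia, changed in opposite directions in the 2 comparisons. It fell in knockout replicate 1 against the wild type and rose with sgRNA1 against the vector, and the difference between the 2 effects was -3.46 on the log2 scale (adjusted p = 1.8e-08 by edgeR's quasi-likelihood test). The vector library and the library labelled knockout replicate 2 both had more of this RNA, 423 and 456 CPM, than the 55.7 to 67.2 CPM of the wild type.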

How the results depend on the processing

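The counts of 3203 members higher and 2684 lower stayed within 1.5 times under DESeq2 size factors, DESeq2's own test, limma-voom, no filter, protein-coding genes alone, a limit of 1 CPM, and a fit of only the wild type and knockout replicate 1. A limit of 20 CPM left 1669 lower, and a change of at least 2-fold left 1009 higher and 1043 lower, since fewer genes could be called. Leaving out 1 library at a time gave 2863 to 3473 higher, 2355 to 2945 lower, -1.77 to -1.70 for ARID1A and 133 to 206 named genes (184 of 265 with all libraries) whose effect differed from that of CRISPRi. The difference from CRISPRi cannot be computed without the vector library. The fit without knockout replicate 2 was chosen after seeing the data. Of 163 named genes other than ARID1A with an adjusted p by DESeq2, 160 kept direction and call there (the calls of BCL11B, MUC17 and ND4 were lost), and 161 of 164 did without the filter, where the calls of BCL11B and TRIM25 were lost and ARID1B, not called, turned to 0.0047. With the wild type and knockout replicate 1 alone, BCL11B, RNR1 and TRIM25 lost their calls, RNR1 also did by limma-voom and without either sgRNA1 library, and without WT replicate 2, BCL11B and MUC17 did. The median over members was 0.04, 0.06 with DESeq2 size factors and 0.02 for protein-coding genes alone.

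Joining both libraries labelled knockout as 1 group left 1284 members lower and ARID1A at -0.40 (adjusted p = 0.497 by edgeR's quasi-likelihood test), and the median over members was 0.12. The named genes ANXA1 (0.59), CLDN2 (0.75), FASN (-0.15), LYZ (0.16), MUC13 (0.34), ND4 (2.52), RNR1 (0.47), RTL1 (0.076) and S100A14 (1.95) then reversed, 53 others lost their call, and the mean of this group includes the library in which ARID1A was not lower. The replicate block added to this grouping left 0 higher and 0 lower by edgeR's quasi-likelihood test, with 2077 and 1472 at an unadjusted p under 0.05, and ARID1A at -0.68 (adjusted p = 0.474 by edgeR's quasi-likelihood test). No other tool was run with the block. ANXA1 (0.091), CLDN2 (0.37), FASN (-0.14), LYZ (0.089), ND4 (1.68), NF1 (-0.039), RAB38 (-0.11) and S100A14 (1.25) reversed; FASN and RAB38 were not called in the first place. The cause of these reversals was not tested. The deviations of libraries with the same number correlated at -0.10 and 0.07 for numbers 1 and 2 over 12251 members. Those of the libraries labelled knockout were taken from their own mean, so they are 1 difference with opposite signs. That difference includes the difference in ARID1A and in the kind of library. These correlations therefore cannot decide whether libraries with the same number were paired.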
